A study of Mus musculus with 15 samples.

Results

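Genes for transporters of amino acids and small peptides were examined in RNA-Seq libraries from mouse kidney. The genes were chosen by symbol, as all rows of the solute carrier families Slc1, Slc3, Slc6, Slc7, Slc15, Slc36, Slc38 and Slc43 that were not marked as pseudogenes. The rule itself used no values, but it was set with earlier results of these data known. The choice gave 72 of the 47069 genes in the table, and the gene IDs of all 72 matched the GENCODE M21 annotation of GRCm38. Of the 72 symbols, 4 end in "os" for a gene on the opposite strand: Slc6a19os, Slc36a1os, Slc36a3os and the protein-coding gene Slc7a6os, which are not transporters themselves but fall under the rule.

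The proximal tubule takes back nearly all amino acids that the glomerulus filters. Carriers in the apical brush border bring them into the cell together with sodium, with protons or in exchange for other amino acids, and carriers in the basolateral membrane pass them on toward the blood. Several Slc7 carriers are light chains that reach the membrane only when bound to a heavy chain of the Slc3 family, rBAT (Slc3a1) at the brush border and 4F2hc (Slc3a2) at the basolateral side. Some Slc6 carriers likewise need the protein collectrin (Tmem27). The tubule has an early S1, a middle S2 and a late S3 segment, and high-capacity carriers such as B0AT1 (Slc6a19) are known from the early part, whereas AGT1 (Slc7a13) and B0AT3 (Slc6a18) are known from the late part.

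The data were 3 libraries of whole kidney and 12 of microdissected proximal tubules, 1 tubule per library, which the labels call PTS2. The mice were C57BL/6 males at 2 months of age, and the labels name no treatment and no altered allele. The PTS2 libraries form 3 sets, m1, m2 and m3, with 4 libraries each that carry the replicate numbers 1 to 4, and the labels state neither what a set nor what a number stands for. Because nothing says that the libraries of a group came from separate animals, the p-values measure the spread between these libraries, which may be technical. Whole kidney is a mixture that contains all 3 proximal segments and every other cell type of the organ. Values are TPM, which are transcript abundances corrected for gene length and scaled to the same sum in every library, so levels of different genes can be compared within a library, but the depth of each library is unknown.

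Marker genes of the segments were read first, and against the label PTS2, markers of S3 but none of S2 were called higher than in kidney. Summed TPM of 4 S3 markers (Slc7a13 among them) was 2196 ± 277 in kidney (SD, n = 3) and 4847 ± 878 in PTS2 (SD, n = 12). The sum of 3 S1 markers was 858 ± 37.5 in kidney and 50.05 ± 13.99 in PTS2. Of the 4 S3 markers 3 were higher in PTS2 by the test used below, and Cyp7b1 did not pass (limma adjusted p = 0.0926). The S2 markers ran apart, with Slc22a8 lower at 68.02 ± 42.2 TPM against 272 ± 11.3 (log2 difference -2.21, limma adjusted p = 8.82e-04) and Slc22a6 at 585 ± 228 TPM against 486 ± 44.1 (0.17, adjusted p = 0.67). Among general markers of the proximal tubule, Slc27a2 was higher in PTS2, at 9166 against 4620 TPM (limma adjusted p = 7.39e-06). Slc34a1 (3351 against 4544 TPM), Aqp1 (357 against 359), Lrp2 (99.1 against 101) and Cubn (27.1 against 27.8) did not pass. Their limma adjusted p were 0.0788, 0.852, 0.76 and 0.765. The name PTS2 is kept here as the label of the libraries. Of the S1 markers, Slc5a2 was at 0.698 TPM and Slc5a12 at 0.102 TPM in PTS2. Thick ascending limb markers summed to at most 55.8 TPM in 11 of the PTS2 libraries and to 1441 TPM in replicate 3 of set m3, against 2569 ± 149 in kidney. Markers of the distal convoluted tubule summed to at most 0.54 TPM in PTS2, and those of endothelium to at most 32.7 TPM against 123 in kidney. In bulk samples of this kind, fewer cells of a type and less RNA per cell cannot be told apart.

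Transcripts of the 72 genes summed to 5085 ± 748 TPM in PTS2 (range 3821 to 6313) and to 3665 ± 73.1 TPM in kidney (range 3616 to 3749), or 0.508% and 0.366% of all TPM. A pair of genes, Slc7a13 and Slc3a1, made up 58.6% ± 1.69 of that sum in PTS2 and 38.04% ± 2.49 in kidney. A mean of 34.4 of the genes lay above 1 TPM per PTS2 library, and 43 per kidney library. Above 10 TPM the means were 21.8 and 27.3 genes. In PTS2 the larger sum was thus spread over fewer genes.

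**Figure D1:**
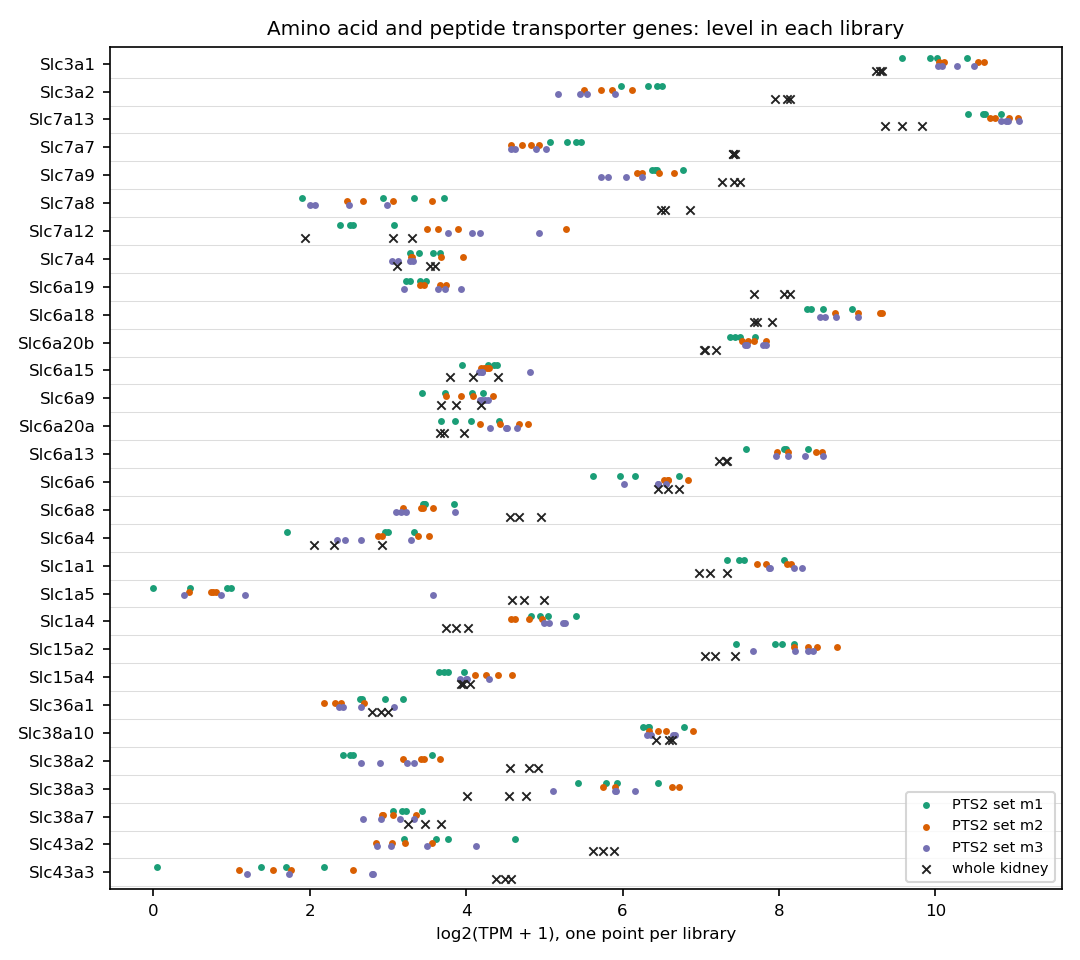
Level of each transporter gene with a mean of at least 5 TPM in PTS2 or in kidney, as log2(TPM + 1) on the horizontal axis, with 1 point per library (circles, PTS2 libraries colored by set; crosses, whole kidney; genes in rows, ordered by role). Slc7a13 is the highest gene in PTS2, at 1367 TPM or more, and all circles of Slc6a19, Slc7a8 and Slc1a5 lie left of the crosses.

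Differences between PTS2 and kidney were tested with limma on log2(TPM + 1) for all genes whose mean reached 1 TPM, as 36 of the 72 genes did. At a Benjamini-Hochberg adjusted p under 0.05, 21 of the 36 genes differed (58.3%, where 51.2% of all 12039 genes tested did). Of the 36, 10 were higher in PTS2 (27.8%, against 9.68% of all genes), 11 were lower (30.6%, against 41.5% of all genes) and 15 did not pass. The median log2 difference was -0.13 over the 36 genes and -0.27 over all genes tested. Differences beyond 1 on the log2 scale were called for 4 genes upward (1.11% of all genes) and for 10 downward (13.8% of all genes). For 9 genes every PTS2 library lay above every kidney library (5.76% of all genes), and for 12 every PTS2 library lay below (32% of all genes). The split depends on scaling: median-of-ratios rescaling, which moved the median of all genes to 0.00, gave 12 higher and 11 lower (23.6% and 23.1% of all genes), and quantile normalization, with a median of 0.16, gave 20 higher and 10 lower (34.6% and 18.9%). Of the 21 calls, 19 held under every alternative that gave a value, and those of Slc6a20a and Slc36a4 did not.

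**Figure D2:**
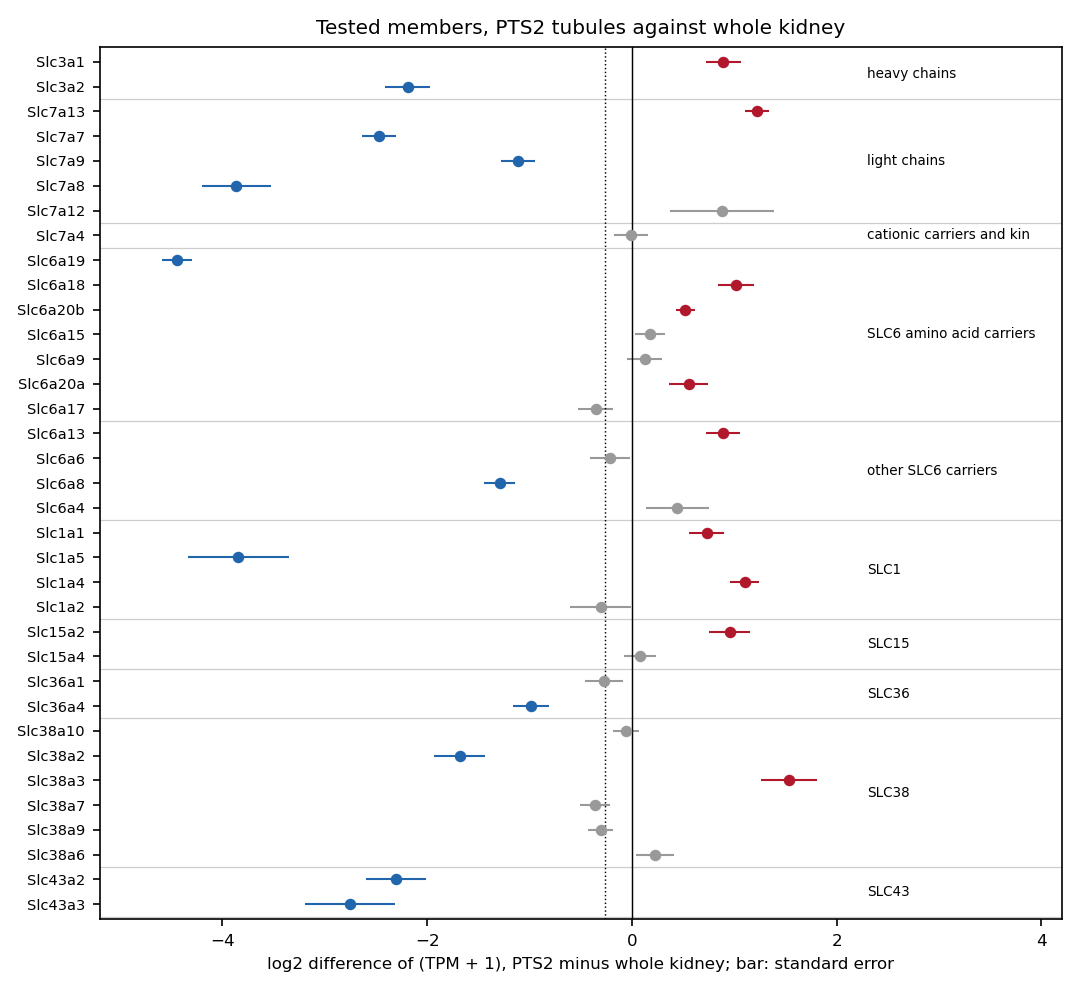
Log2 difference between PTS2 and whole kidney on the log2(TPM + 1) scale (horizontal axis; bars, standard error) for 35 of the 36 tested genes, grouped by role, with Slc7a6os not drawn. Red points were higher and blue points lower at an adjusted p under 0.05, grey points did not pass, and the dotted line marks the median of all genes, -0.27; within most groups the points lie on both sides of 0.

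The heavy chains differed in opposite directions. Slc3a1 (ENSMUSG00000024131; GRCm38 chromosome 17, 85028376 to 85064236, plus strand), which encodes rBAT, ranged from 760.5 TPM in the lowest PTS2 library through a median of 1093 to 1570.4 in the highest, and the kidney libraries had 634, 603 and 628 TPM. All 12 tubules lay above all kidney libraries, with a log2 difference of 0.89 ± 0.17 (SE; by limma, adjusted p = 2.99e-04). Slc3a2 (ENSMUSG00000010095; chromosome 19, 8706882 to 8723369, minus strand), which encodes 4F2hc, ranged from 35.2 TPM through a median of 58.2 to 89.9 in PTS2, and kidney had 282, 247 and 275 TPM. Here all tubules lay below kidney, with a log2 difference of -2.19 ± 0.22 (SE; by limma, adjusted p = 3.35e-07). PTS2 tubules therefore held 1179 TPM of the brush border heavy chain and 60.1 TPM of the basolateral one on average. Part of the Slc3a1 exons, 601 bases, overlaps Prepl on the other strand, and whether counting used strand is not given in the sources used here. Other transporter genes have such overlaps too, not all of which are given.

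The sequences before the start sites are shown for both heavy chains, for the light chain Slc7a9 that moved against its heavy chain, and for Slc6a19, the gene with the largest difference. Each is the 250 bases before a RefSeq start site (GRCm38.p6), at chr17:85028097-85028346 (plus strand) for Slc3a1, chr19:8713898-8714147 (minus) for Slc3a2, chr7:35448842-35449091 (plus) for Slc7a9 and chr13:73692637-73692886 (minus) for Slc6a19. Capitals mark TATAAA or CAAAGTC, the core of an HNF4 site, on either strand. GTTAAT, a half-site of HNF1, was searched as well. HNF1 and HNF4 are transcription factors of the proximal tubule. The windows of Slc3a2, Slc7a9 and Slc6a19 lie inside the GENCODE genes, which start farther upstream.
Slc3a1: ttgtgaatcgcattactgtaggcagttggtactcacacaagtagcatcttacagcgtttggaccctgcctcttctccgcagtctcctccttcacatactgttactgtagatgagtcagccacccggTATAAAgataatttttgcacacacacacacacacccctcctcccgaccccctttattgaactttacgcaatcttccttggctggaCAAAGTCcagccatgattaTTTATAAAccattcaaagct
Slc3a2: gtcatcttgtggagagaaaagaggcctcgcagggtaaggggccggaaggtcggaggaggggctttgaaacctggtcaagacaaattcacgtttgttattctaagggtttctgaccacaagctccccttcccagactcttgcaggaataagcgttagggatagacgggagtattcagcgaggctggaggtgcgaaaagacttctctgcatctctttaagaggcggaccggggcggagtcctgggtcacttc
Slc7a9: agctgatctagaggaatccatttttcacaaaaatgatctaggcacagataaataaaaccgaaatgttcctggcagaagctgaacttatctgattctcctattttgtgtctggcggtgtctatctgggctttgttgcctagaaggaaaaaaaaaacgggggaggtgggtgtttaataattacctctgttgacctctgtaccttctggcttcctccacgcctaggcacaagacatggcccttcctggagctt
Slc6a19: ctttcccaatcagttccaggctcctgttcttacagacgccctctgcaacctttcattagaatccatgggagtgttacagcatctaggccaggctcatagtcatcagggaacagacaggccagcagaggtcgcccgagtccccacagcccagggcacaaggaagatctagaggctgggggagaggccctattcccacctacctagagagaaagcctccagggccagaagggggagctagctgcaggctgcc
The Slc3a1 window held TATAAA at 124 and at 18 bases before the start, the latter overlapping its reverse complement TTTATA, and CAAAGTC at 39 bases before it. The other 3 windows held none of the searched letters. Promoter entries matched 53 of the 72 genes, with 74 start sites. CAAAGTC was in 4.05% of these 74 windows and in 3.84% of all 32851 windows of the table, GTTAAT in 8.11% and 6.43%, and TATAAA in 8.11% and 12.4%. These matches describe letters in a window of fixed length and not binding.

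The 2 light chains that pair with rBAT at the brush border also moved apart. Slc7a13 (ENSMUSG00000041052; chromosome 4, 19818725 to 19842218), the aspartate, glutamate and cystine carrier AGT1, ranged from 1367 through a median of 1829 to 2140.5 TPM in PTS2, and kidney had 758, 909 and 652 TPM. All tubules lay above kidney, with a log2 difference of 1.22 ± 0.12 (SE; by limma, adjusted p = 2.81e-07). Slc7a9 (ENSMUSG00000030492; chromosome 7, 35448796 to 35466036), the carrier b0,+AT for cystine and dibasic amino acids whose loss causes cystinuria, ranged from 51.8 through 78.8 to 108.8 TPM in PTS2, and kidney had 170.3, 153 and 180.5 TPM. All tubules lay below kidney, with a log2 difference of -1.11 ± 0.17 (SE; by limma, adjusted p = 4.04e-05). The ratio of Slc7a13 to Slc7a9 was 24.4 ± 7.76 in PTS2 (range 12.6 to 37.04) and 4.67 ± 1.18 in kidney (range 3.61 to 5.95), so these ranges did not overlap. The sum of both light chains over Slc3a1 was 1.63 ± 0.184 in PTS2 (range 1.36 to 1.94) and 1.52 ± 0.222 in kidney (range 1.33 to 1.76), and here the ranges overlapped. The ratios are descriptions without a test.

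**Figure D3:**
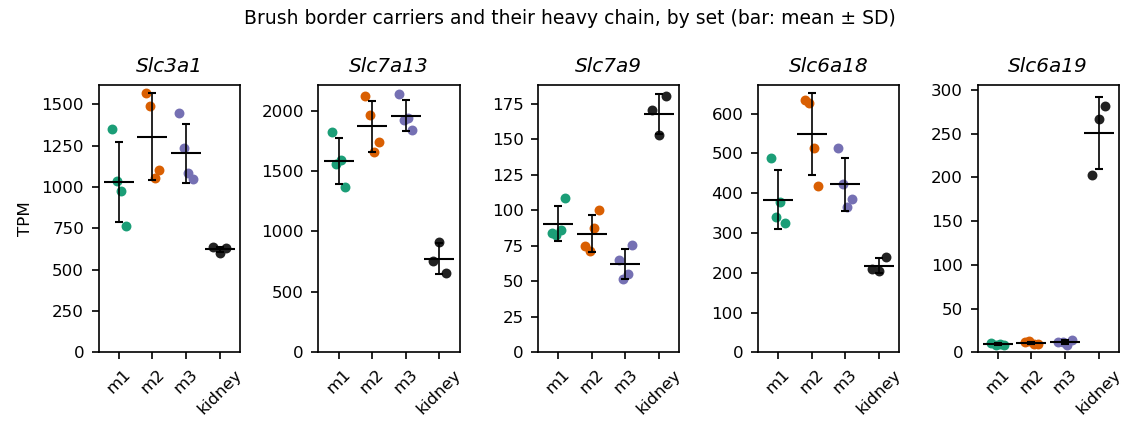
TPM of the heavy chain Slc3a1, its light chains Slc7a13 and Slc7a9, and the neutral amino acid carriers Slc6a18 and Slc6a19 (vertical axes from 0; horizontal axis, PTS2 sets and whole kidney; points, libraries; bars, mean ± SD over 4 PTS2 or 3 kidney libraries). Slc3a1, Slc7a13 and Slc6a18 lie above kidney in every tubule, and Slc7a9 and Slc6a19 lie below kidney in every tubule.

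The light chains of the basolateral heavy chain were low in PTS2. Slc7a7 (ENSMUSG00000000958; chromosome 14, 54369442 to 54417780), the exchanger y+LAT1 that exports dibasic amino acids, ranged from 22.8 through 29.1 to 43.1 TPM in PTS2, and kidney had 172.5, 168.8 and 168.8 TPM. The log2 difference was -2.47 ± 0.17 (SE; by limma, adjusted p = 2.19e-09). Slc7a8 (ENSMUSG00000022180; chromosome 14, 54722209 to 54781946), the neutral exchanger LAT2, ranged from 2.72 through 6.05 to 12.1 TPM in PTS2, and kidney had 115.5, 89.1 and 92.2 TPM. With a log2 difference of -3.87 ± 0.34 (SE; by limma, adjusted p = 6.09e-08), its mean in kidney was 15.5 times that in PTS2. The light chains Slc7a5 to Slc7a8, Slc7a10 and Slc7a11 together amounted to 0.633 ± 0.101 times Slc3a2 in PTS2 (range 0.395 to 0.747) and 1.01 ± 0.0494 times in kidney (range 0.96 to 1.05), a further set of ranges without overlap.

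Both tested Slc43 genes followed. Slc43a2, the basolateral facilitative carrier LAT4, was at 10.7 ± 5.06 TPM (SD, n = 12) against 53.2 ± 4.99 (SD, n = 3), a log2 difference of -2.30 ± 0.30 (SE; by limma, adjusted p = 6.30e-06). Slc43a3 was at 2.77 ± 1.92 TPM against 21.4 ± 1.47, a log2 difference of -2.75 (adjusted p = 6.48e-05). No PTS2 library reached a kidney library for either gene. Summed over Slc3a2, Slc7a7, Slc7a8 and Slc43a2, the basolateral transcripts came to 108 ± 29.04 TPM in PTS2 (range 68.4 to 164.5) and 589.9 ± 35.5 TPM in kidney (range 558 to 628). The S1 markers and the markers of other cell types given above were lower in PTS2 as well, and their part in these differences was not tested.

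Slc7a12, a light-chain relative, varied widely among the tubules. Its PTS2 libraries ran from 4.22 through 12.1 to 37.9 TPM and its kidney libraries were at 2.84, 8.88 and 7.36 TPM, overlapping, and the log2 difference of 0.88 ± 0.50 did not pass (limma adjusted p = 0.154). Slc7a4, a relative of the cationic carriers, had a mean of 9.80 TPM in kidney and 9.81 TPM in PTS2. Its adjusted p was 0.98 at a log2 difference of -0.01, whose sign changed with scaling and with single libraries left out. The other 4 genes of the cationic group, Slc7a1, Slc7a2, Slc7a3 and Slc7a14, stayed under the filter, with PTS2 maxima of 0.93, 0.08, 0.17 and 0.02 TPM.

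Among the Slc6 carriers of amino acids, Slc6a19 and Slc6a18 ran in opposite directions. Slc6a19 (ENSMUSG00000021565; chromosome 13, 73679745 to 73704865, minus strand), the main sodium-dependent carrier of neutral amino acids in the early tubule, ranged from 8.26 through 10.1 to 14.3 TPM in PTS2, and kidney had 203, 267 and 281 TPM. The log2 difference of -4.44 ± 0.15 (SE; by limma, adjusted p = 1.52e-13) corresponded to a kidney mean 23.7 times the PTS2 mean. Slc6a18 (ENSMUSG00000021612; chromosome 13, 73661752 to 73678023, minus strand), its late-segment relative B0AT3, ranged from 326 through 421 to 634 TPM in PTS2, and kidney had 209.8, 204 and 238 TPM. All tubules were above kidney, with a log2 difference of 1.02 ± 0.18 (SE; by limma, adjusted p = 1.45e-04). The genes are neighbours on the same strand, with 1721 bases between them. Slc6a18 over Slc6a19 was 43 ± 8.04 in PTS2 (range 27.0 to 54.4) and 0.881 ± 0.137 in kidney (range 0.764 to 1.03).

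Another neighbouring pair moved together. Slc6a20b (ENSMUSG00000025243; chromosome 9, 123590800 to 123632565) ranged from 165 through 193 to 227 TPM in PTS2, and kidney had 132, 145 and 130.5 TPM. All tubules lay above kidney, with a log2 difference of 0.52 ± 0.09 (SE; by limma, adjusted p = 1.86e-04). Slc6a20a (ENSMUSG00000036814; chromosome 9, 123634770 to 123678885), the imino acid carrier SIT1, was lower in level, at 11.8 through 20.5 to 26.7 TPM in PTS2 and 11.7, 14.7 and 12.1 TPM in kidney. Its libraries overlapped, and the log2 difference was 0.56 ± 0.19 (limma adjusted p = 0.0218). That call was lost without kidney replicate 1 (0.50, adjusted p = 0.0928) or without kidney replicate 3 (0.52, adjusted p = 0.0812). The genes are 2204 bases apart and near copies, so reads may have been split between them, and Slc6a20b shares 1800 exon bases with Sacm1l on the other strand. Slc6a15, at 18.6 ± 3.07 against 16.4 ± 3.66 TPM, and the glycine carrier Slc6a9, at 15.7 ± 2.92 against 14.2 ± 2.76 TPM, did not pass (limma adjusted p = 0.313 and 0.561). Slc6a9 shares 1986 of its 5141 exon bases with B4galt2, Ccdc24 and Gm17114 on the other strand.

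Collectrin, the partner of these carriers, was abundant in both tissues. Tmem27 had 2788 ± 214 TPM in the tubules and 3432 ± 139 TPM in kidney, a log2 difference of -0.30 ± 0.07 (limma adjusted p = 2.45e-03), and this difference is close to the median of all genes. The sum of Slc6a18, Slc6a19, Slc6a20a and Slc6a20b over Tmem27 was 0.244 ± 0.0472 in PTS2 (range 0.179 to 0.339) and 0.180 ± 0.012 in kidney (range 0.166 to 0.189), with overlapping ranges.

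The Slc6 carriers for other substrates divided as well. Slc6a13 (ENSMUSG00000030108; chromosome 6, 121300227 to 121337733), a carrier of GABA and taurine, ranged from 189.7 through 276 to 378 TPM in PTS2, and kidney had 160.0, 158 and 149 TPM. All tubules were above kidney, with a log2 difference of 0.89 ± 0.16 (SE; by limma, adjusted p = 2.59e-04). Its neighbour 5342 bases away, the betaine carrier Slc6a12, was under the filter and was singled out after its values were seen. It was at 2.29, 2.9 and 3.81 TPM in kidney and at most 0.27 TPM in PTS2. The creatine carrier Slc6a8 had 9.97 ± 1.90 TPM in the tubules and 25.7 ± 3.92 TPM in kidney, with no overlap and a log2 difference of -1.29 (limma adjusted p = 2.63e-06). The taurine carrier Slc6a6, at 84.1 ± 19.1 against 95.3 ± 8.83 TPM, and the serotonin carrier Slc6a4, at 6.72 ± 2.44 against 4.56 ± 1.80 TPM, did not pass (limma adjusted p = 0.38 and 0.24).

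Slc1 genes gave the same mixed picture. Slc1a1 (ENSMUSG00000024935; chromosome 19, 28835049 to 28913960), the glutamate and aspartate carrier EAAT3 of the brush border, ranged from 160.7 through 234 to 313 TPM in PTS2. Kidney had 138, 160.7 and 125 TPM, so the lowest tubule, at 160.69, lay just above the highest kidney library, at 160.67. The log2 difference was 0.73 ± 0.17 (SE; by limma, adjusted p = 1.92e-03). Slc1a1 shares 2631 of its 8257 exon bases with 4430402I18Rik on the other strand. Slc1a4, the neutral amino acid exchanger ASCT1, was at 31 ± 5.51 TPM against 13.8 ± 1.49 TPM, with all tubules higher and a log2 difference of 1.10 ± 0.14 (limma adjusted p = 8.00e-06). Slc1a5, the glutamine exchanger ASCT2, ran the other way. Its values in 11 tubules lay between 0 and 1.25 TPM, the value in m3 replicate 3 was 10.9 TPM, and kidney had 23.1, 25.7 and 31 TPM, a log2 difference of -3.84 ± 0.49 (limma adjusted p = 5.98e-06). The tubule at 10.9 TPM is the library with 1441 TPM of thick ascending limb markers, and the part of those cells in its Slc1a5 value was not tested.

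Of the peptide carriers, PEPT2 was present and PEPT1 was near 0. Slc15a2 (ENSMUSG00000022899; chromosome 16, 36750177 to 36784962), the high-affinity proton-coupled carrier PEPT2 of the late tubule, ranged from 174.6 through 294 to 425 TPM in PTS2, and kidney had 144, 132 and 172 TPM. All tubules were above kidney, with a log2 difference of 0.96 ± 0.20 (SE; by limma, adjusted p = 7.48e-04). Slc15a1, the low-affinity carrier PEPT1 known from the early tubule and the intestine, was at 0.21, 0.11 and 0.08 TPM in kidney and at 0.01 TPM or listed at 0 in PTS2, so no ratio of the carriers was formed. Slc15a4, the lysosomal carrier of histidine and peptides, was at 16 ± 3.47 TPM against 14.8 ± 0.631 TPM (limma adjusted p = 0.701).

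In the Slc38 family of sodium-coupled neutral carriers, 1 of 6 tested genes was higher and 1 was lower. Slc38a3 (ENSMUSG00000010064; chromosome 9, 107650634 to 107669530), the glutamine carrier SNAT3 that feeds ammonia production, ranged from 33.7 through 59.3 to 104.8 TPM in PTS2, and kidney had 26.2, 15.1 and 22.4 TPM. All tubules were above kidney, and the log2 difference of 1.53 ± 0.27 (SE; by limma, adjusted p = 1.90e-04) was the largest upward one among the 36 genes. Slc38a2, the carrier SNAT2, was at 7.81 ± 2.57 TPM against 26.3 ± 3.41 TPM, below kidney in every tubule, with a log2 difference of -1.68 (limma adjusted p = 2.95e-05). Slc38a10 was abundant in both, at 90.2 ± 14.04 and 92.9 ± 6.79 TPM, and its log2 difference of -0.05 did not pass (adjusted p = 0.741). The lysosomal glutamine exporter Slc38a7, at 7.71 ± 1.30 against 10.1 ± 1.62 TPM, just missed the threshold (adjusted p = 0.051).

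The Slc36 family of proton-coupled carriers was low in both tissues. Slc36a1 had 5.34 ± 1.44 TPM in the tubules and 6.5 ± 0.53 TPM in kidney and did not pass (limma adjusted p = 0.23). Slc36a4 had a PTS2 mean of 1.12 ± 0.379 TPM and a kidney mean of 3.15 ± 0.207 TPM without overlap, a log2 difference of -0.99 ± 0.17 (limma adjusted p = 1.65e-04). Under quantile normalization its difference was -0.17 and no longer passed. Slc7a6os, the gene beside Slc7a6, was at 11.3 ± 0.986 against 13.3 ± 1.69 TPM (adjusted p = 0.0787). The last 4 tested genes, Slc38a6, Slc38a9, Slc6a17 and Slc1a2, had means between 1.70 and 3.77 TPM in both tissues and did not pass. Slc38a9 just missed the threshold (log2 difference -0.305, limma adjusted p = 0.0511). All its tubules, at most at 2.43 TPM, lay below kidney, at least at 2.51 TPM. It passed as lower under 6 alternatives and as higher under quantile normalization (log2 difference 0.512).

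The other 36 genes had means under 1 TPM over the 15 libraries and were not tested. Their highest single PTS2 value was 0.93 TPM, and 3 of them, Slc7a15, Slc38a5 and Slc38a8, were listed at 0 in all 15 libraries. In kidney, 6 of the 36 had means of at least 1 TPM, the highest being Slc6a12 at 3.00 TPM. For 13 of the 36, every PTS2 value lay below every kidney value, as it did for 6.66% of the 35030 genes under the filter. Those genes include ones listed at 0 in every library, which cannot lie below kidney, so that share is not a matched reference. For 0 of them every value lay above (0.0314% of those genes).

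Other genes of amino acid reabsorption were read from a list of 11, all of which were tested. Of these, 3 were higher and 6 were lower in PTS2, where 9.68% and 41.5% of all genes were. Ggt1, the brush border enzyme that breaks down glutathione, was at 2756 ± 225 TPM against 1555 ± 97.9 TPM (log2 difference 0.82, limma adjusted p = 2.02e-07). The brush border scaffolds Pdzk1 and Slc9a3r1 were higher too, at 1405 against 1050.0 TPM and at 356 against 247 TPM (limma adjusted p = 1.57e-04 and 4.93e-05). Dpep1, a dipeptidase that acts after Ggt1, was at 4.45 ± 1.72 TPM against 127 ± 14.4 TPM (log2 difference -4.61, limma adjusted p = 2.21e-10). Lower also were the sodium-proton exchanger Slc9a3 (7.83 against 27.4 TPM), the aromatic amino acid carrier Slc16a10 (0.67 against 3.76 TPM), the lysosomal exporters Pqlc2 (21.2 against 35.5 TPM) and Ctns (13.9 against 21.7 TPM), and Tmem27. Slc16a10 reached the filter of 1 TPM only through its kidney libraries, so it could enter the test only with a higher mean in kidney. The aminopeptidase Anpep, at 19.8 against 17.5 TPM, did not pass (limma adjusted p = 0.415).

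Genes of the response of cells to a shortage of amino acids, a sensor of it included, were read from a list of 12, of which 8 were tested. Of these, 5 were lower in PTS2 (41.5% of all genes were) and 0 were higher (0 also at an unadjusted limma p under 0.05, and 9.68% of all genes were called). Psat1 and Phgdh, enzymes of serine synthesis, were at 6.15 against 39.2 TPM and at 2.15 against 16.9 TPM (limma adjusted p = 2.92e-05 and 1.45e-05). Ddit3 was at 13.9 against 30.5 TPM, the amino acid sensor kinase Eif2ak4 at 1.46 against 3.19 TPM and Ddit4 at 0.764 against 2.23 TPM (limma adjusted p = 2.02e-04, 1.65e-03 and 2.37e-04). Ddit4 reached the filter of 1 TPM only through its kidney libraries, so it could enter the test only with a higher mean in kidney. Atf4, the transcription factor of this response, was at 42.1 ± 7.88 against 48.7 ± 3.31 TPM and did not pass (adjusted p = 0.182), nor did Asns and Sesn2 (adjusted p = 0.451 and 0.331). Median log2 difference over the 8 genes was -0.83, beside -0.27 for all genes.

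The 3 sets of PTS2 tubules were compared with a limma F test over 11300 genes, with the replicate number left out of the model. Of the 36 transporter genes tested, 3 passed (8.33%, where 3.02% of all genes did), and 12 had an unadjusted p under 0.05. Shares of all genes are given for adjusted p only. The unadjusted counts here and below therefore do not show whether transporter genes differ from all genes. The pair of basolateral subunits Slc3a2 and Slc7a7 was highest in m1, and Slc7a12 was lowest there. Slc3a2 was at 79.2, 89.9, 62.2 and 85.6 TPM in m1, at 44.5, 51.7, 57.4 and 68.5 TPM in m2, and at 42.9, 35.2, 45.5 and 59.1 TPM in m3. The m1 and m3 libraries did not overlap, with a log2 difference of -0.79 ± 0.17 for m3 minus m1 (limma adjusted p = 0.0228). Slc7a7, its light chain, was at 41.4, 32.6, 38.02 and 43.1 TPM in m1, at 27.5, 25.2, 22.9 and 29.6 TPM in m2, and at 28.6, 22.8, 23.7 and 31.5 TPM in m3. Again m1 and m3 did not overlap, with a log2 difference of -0.53 ± 0.12 (limma adjusted p = 0.0379). Slc7a12 was at 7.41, 4.22, 4.70 and 4.87 TPM in m1, at 37.9, 10.3, 11.5 and 13.9 TPM in m2, and at 29.6, 12.7, 15.8 and 17.1 TPM in m3. All m3 libraries lay above all m1 libraries, with a log2 difference of 1.61 ± 0.35 (limma adjusted p = 0.027).

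**Figure D4:**
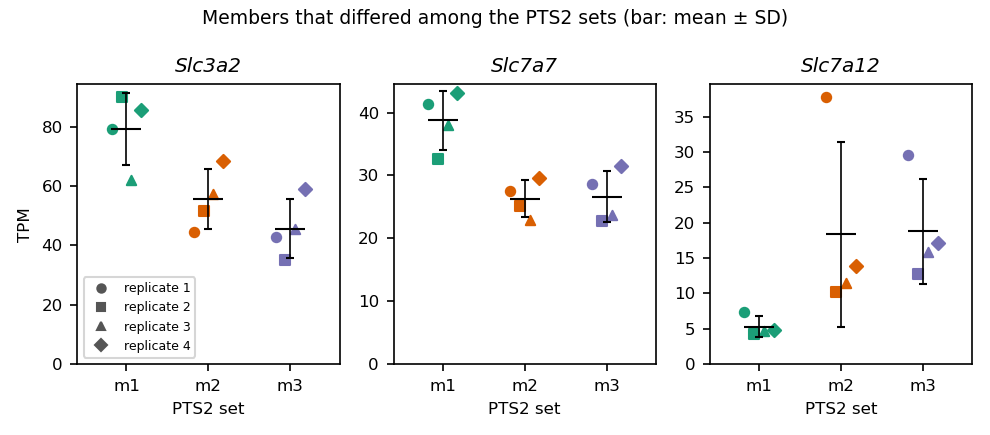
TPM of the 3 genes that passed the F test among the PTS2 sets (vertical axes from 0; horizontal axis, set; symbols, replicate number in the labels; bars, mean ± SD over 4 libraries). Slc3a2 and Slc7a7 are higher in the m1 libraries than in every m3 library, and Slc7a12 is lower in every m1 library than in every m3 library.

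In this fit, which leaves the replicate number out, the other genes did not pass among sets, basolateral carriers included. Slc7a8 had an adjusted p of 0.562 and Slc43a2 of 0.487 in the limma F test. More genes passed with the number as a replicate block, as given in the last section. Not passing here therefore does not show that the sets were alike. Slc7a13 had set means of 1583, 1869 and 1958 TPM (adjusted p = 0.197), Slc3a1 of 1031, 1304 and 1203 TPM (adjusted p = 0.503) and Slc6a18 of 383, 548 and 422 TPM (adjusted p = 0.192). Slc7a9 had set means of 90.3, 83.5 and 61.8 TPM and an adjusted p of 0.0908. The m3 and m1 libraries did not overlap for Slc7a13, which had all m3 values above all m1 values, nor for Slc7a9, which had all m3 values below (log2 difference -0.55, limma adjusted p = 0.0517). Between m3 and m1, 3 genes passed (3.17% of all genes did), between m2 and m1 and between m3 and m2 0 passed (0.54% and 1.97% of all genes), where 13 and 5 had an unadjusted limma p under 0.05. In the list of other reabsorption genes, 0 of 10 passed the F test (1 at an unadjusted limma p under 0.05), and in the amino acid response list 1 of 7 did, Atf4, with set means of 37.8, 51.9 and 36.6 TPM (adjusted p = 0.0121).

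The number of calls among sets moved when single libraries were left out, while the differences between m3 and m1 stayed of like size. The count of 3 became 0 without m1 replicate 4, m3 replicate 1 or m3 replicate 3 (7, 11 and 13 genes at an unadjusted limma p under 0.05), 1 without m1 replicate 2, m1 replicate 3, m2 replicate 2, m2 replicate 3 or m3 replicate 2, and 6 without m1 replicate 1. For m3 against m1, the log2 difference of Slc3a2 stayed between -0.92 and -0.68 when 1 library was left out, but its call was lost without m1 replicate 2 (adjusted p = 0.0622), m1 replicate 4 (0.0631), m3 replicate 1 (0.0766), m3 replicate 2 (0.0632) or m3 replicate 3 (0.0592). That of Slc7a7, with log2 differences between -0.61 and -0.46, was lost without m1 replicate 1, 3 or 4, m2 replicate 1 or 2, or m3 replicate 1, 2 or 3 (adjusted p between 0.0501 and 0.111), and that of Slc7a12, with log2 differences between 1.38 and 1.76, without m1 replicate 2, 3 or 4 or m3 replicate 1 or 3 (between 0.0605 and 0.0926). With no filter on low values, all 3 calls were lost (adjusted p = 0.0843 for Slc3a2, 0.107 for Slc7a7 and 0.108 for Slc7a12).

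The libraries were also compared by replicate number, each of which occurs once in every set, with the set as a term in the model. Of the 36 genes, 6 passed the limma F test among the numbers (16.7%, where 2.71% of all genes did). At an unadjusted p under 0.05 there were 18, again without a share of all genes. Number 4 minus number 1, the contrast tested, was negative for 7 genes that passed (19.4%, against 3.07% of all genes) and positive for 1 (2.78%, against 1.69%). The 7 were the heavy chain Slc3a1, the brush border carriers Slc7a13, Slc6a18 and Slc15a2, and Slc6a13, Slc38a3 and Slc7a12. The gene that was higher was the basolateral carrier Slc43a2. Slc7a13 and Slc6a18 passed this contrast but not the limma F test among the numbers (adjusted p = 0.105 and 0.0662).

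Slc3a1 was at 1349, 1570.4 and 1445 TPM in the libraries numbered 1 of m1, m2 and m3, and at 760.5, 1102 and 1050.2 TPM in those numbered 4. The groups did not overlap, and the log2 difference was -0.60 ± 0.09 (SE; by limma, adjusted p = 3.88e-03). Slc6a13 was at 331, 373 and 378 TPM in number 1 and at 189.7, 251 and 247 TPM in number 4, also without overlap, a log2 difference of -0.66 ± 0.08 (adjusted p = 2.29e-03). Slc38a3 was at 86.8, 104.8 and 70.5 TPM in number 1 and at 41.9, 52.7 and 33.7 TPM in number 4, without overlap, a log2 difference of -1.02 ± 0.13 (adjusted p = 2.56e-03). Slc6a18 was at 489.8, 634 and 515 TPM against 326, 418 and 385 TPM, without overlap, a log2 difference of -0.53 ± 0.10 (adjusted p = 0.0142). Within each set these genes were lower in the library numbered 4 than in the one numbered 1.

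The remaining calls overlapped between the numbers when the sets were pooled. Within each set, Slc15a2, Slc7a13 and Slc7a12 were lower in the library numbered 4 than in the one numbered 1, and Slc43a2 was higher. Slc15a2 had means of 331 and 223 TPM (log2 difference -0.60, limma adjusted p = 7.78e-03), Slc7a13 of 2029 and 1647 TPM (-0.31, 0.0275) and Slc7a12 of 24.9 and 12.0 TPM (-0.89, 0.0243). Slc43a2 ran the other way, with means of 8.74 and 17.0 TPM (0.88 ± 0.18, limma adjusted p = 0.0186). Slc7a9 was at 74.8 and 94.7 TPM and did not pass (0.33, adjusted p = 0.0622). Markers of the segments differed between the numbers too. The S3 sum was 5895 ± 132 TPM in number 1 and 3948 ± 783 TPM in number 4, and all 4 of its genes were lower in number 4. The S2 sum was 481 ± 193 and 1022 ± 128 TPM, and both of its genes were higher. The S1 sum of 43.1 and 70.4 TPM was nearly all Slc2a2, at 42.3 and 69.7 TPM, whereas Slc5a2 was at 0.707 and 0.61 TPM and Slc5a12 at 0.147 and 0.06 TPM. The principal cell sum of 12.7 and 34.2 TPM was nearly all Aqp3, at 11.6 and 31.4 TPM, with Aqp2 at 0.873 and 2.54 TPM. Their part in the difference was not tested. Of the other reabsorption genes, 1 of 10 passed the F test, Slc9a3, with 5.87 TPM in number 1 and 12.3 TPM in number 4 (log2 difference 0.93, limma adjusted p = 0.0227 for this contrast).

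**Figure D5:**
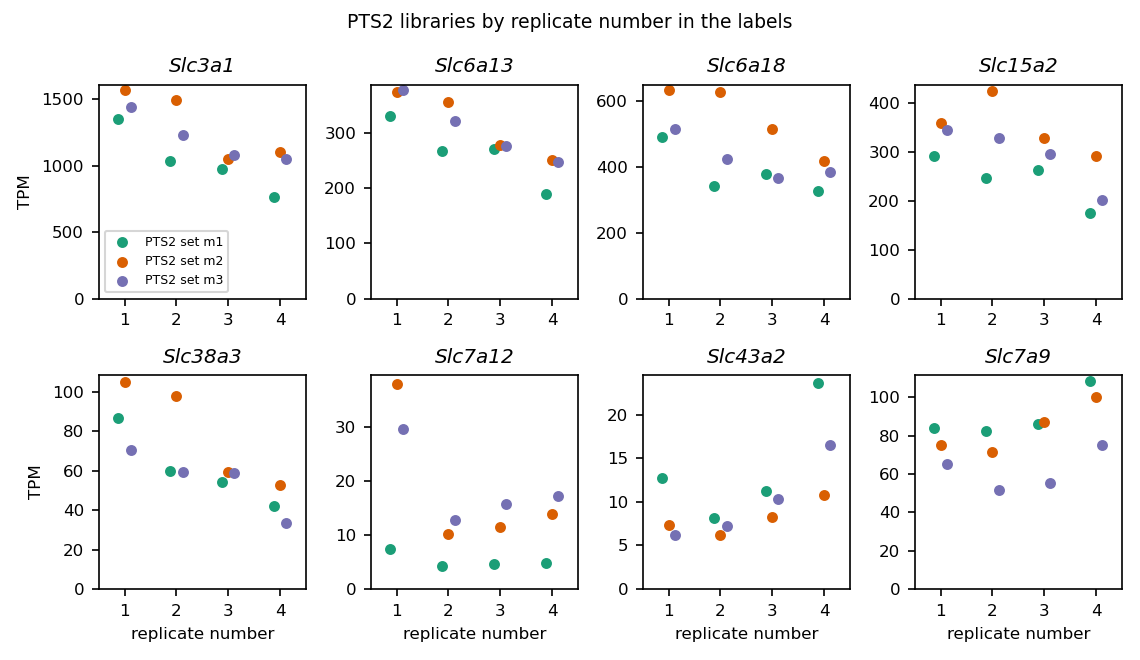
TPM of 8 transporter genes in the 12 PTS2 libraries (vertical axes from 0), plotted by the replicate number in the labels (horizontal axis) and colored by set. For Slc3a1, Slc6a13, Slc6a18 and Slc38a3 the 3 libraries numbered 4 lie below the 3 numbered 1, and numbers have no stated order or meaning.

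This count, too, depended on libraries. It was 1 without m1 replicate 4, and 3 without m2 replicate 1, m3 replicate 2 or m3 replicate 4. The number 4 minus number 1 calls of Slc6a13, Slc38a3 and Slc3a1 held with each library left out in turn. That of Slc15a2 was lost without m1 replicate 1 (adjusted p = 0.0506) and that of Slc6a18 without m1 replicate 1 or 4, m2 replicate 4 or m3 replicate 1 (limma adjusted p between 0.0556 and 0.0818). Slc7a13 lost its call without m1 replicate 1 or 4, m2 replicate 1 or 4, or m3 replicate 1 (between 0.0593 and 0.142), Slc7a12 without m1 replicate 4, m2 replicate 1 or 4, or m3 replicate 1 or 4 (between 0.0646 and 0.103), and Slc43a2 without m1 replicate 4, m2 replicate 1, or m3 replicate 1 or 4 (between 0.0591 and 0.113). Without the set as a term, 0 genes passed the F test (8 at an unadjusted limma p under 0.05), and of the contrast calls that of Slc6a13 alone held, with Slc38a3 at an adjusted p of 0.0585 and Slc3a1 at 0.102. Under median-of-ratios rescaling the Slc7a13 call was lost (adjusted p = 0.0703), as it was under quantile normalization (0.0824). With no filter, 0 genes passed the F test (15 at an unadjusted limma p under 0.05), and the contrast calls of Slc7a13, Slc6a18, Slc15a2, Slc7a12 and Slc43a2 were lost (adjusted p between 0.0596 and 0.14).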

How the data were processed

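The study's 15 libraries were made from RNA amplified to cDNA with a SMART-Seq kit and run on an Illumina sequencer, per the labels' protocols. The authors deposited a table of TPM values per gene; the submitters' processing notes name STAR 2.5.1b, RSEM 1.2.31 and GRCm38.p5. TPM keep no depth, so no count test, interval or detection floor is given. The authors' 4 columns of means and standard errors were not used, and 0 pairs of columns held identical values.

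Groups came from the labels. All genes whose mean over a comparison's libraries reached 1 TPM were fitted with limma 3.58.1 in R 4.3.3 (lmFit, then eBayes with trend) on log2(TPM + 1), which understates differences of low genes, with Benjamini-Hochberg adjustment over all genes and a threshold of 0.05. PTS2 against kidney (12039 genes) had the set as a correlated block, with an estimated correlation of 0.0669. The sets were compared without covariates, and the numbers with the set as a fixed term (11300 genes each). The fits were checked on simulated data. With 200 genes changed by 1 on the log2 scale, 159 were recovered against kidney, 150 among sets and 105 among numbers. False calls were 9, 7 and 3. With a change of 2, the fits recovered 196, 197 and 184. Values were drawn independently for each library, so spread shared within a set or number was not covered. Promoter windows came from RefSeq and gene coordinates from GENCODE M21. Python 3.11.15 served for ratios, sequences and figures.

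Named with values were Slc7a13, Slc3a1 and Slc6a19, members whose mean reached 5 TPM in PTS2 or kidney, called members whose groups did not overlap, and called genes of the partner and response lists, of which 1 is not reported here. The members, lists and comparisons were chosen with earlier results of these data known. Alternatives were quantile normalization, median-of-ratios rescaling, a total without mitochondrial genes, a pseudocount of 0.1, no filter or one at 10 TPM, other block terms, the mean of each set as its value, and leaving out each library. Leaving out m1 replicate 4 and m3 replicate 3 together was chosen after seeing the data.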

Additional observations from a re-analysis of the deposited data

Results flagged for a closer look

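For each tested transporter gene and PTS2 set, the distance of the most extreme of the 4 libraries from its nearest neighbour was divided by the range of the set. Of 108 such sets of values, 10 had a gap above the critical share of 0.829, where a rate of 1 in 20 gives about 5.4. That rate takes the values as normal and independent, whereas the genes share the same libraries. No excess over chance is therefore read from these counts. The libraries that stood apart were mostly numbered 1 or 4.

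Slc7a12 was at 37.86 TPM in m2 replicate 1, with the next library of m2 at 13.88 TPM. In m1 replicate 1, Slc38a2 was at 10.85 TPM (next 4.88), Slc38a10 at 109.09 TPM (next 80.19) and Slc1a2, the lowest of its set, at 0.65 TPM (next 1.81). Slc6a6 was at 113.12 TPM in m2 replicate 1 (next 94.66). In m1 replicate 4, Slc7a9 was at 108.77 TPM (next 86.09) and Slc6a8 at 13.33 TPM (next 10.14). In m3 replicate 4, Slc6a8 was at 13.46 TPM (next 8.37) and Slc6a15 at 27.26 TPM (next 17.38). Slc1a5 was at 10.9 TPM in m3 replicate 3 (next 1.25), the library with the thick ascending limb markers.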

How the results depend on the processing

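Depth is unknown, so how much of the spread at a few TPM is counting error cannot be told. For PTS2 against kidney, leaving out single libraries gave 9 to 10 genes higher and 11 to 14 lower. No filter gave 26 lower, because more genes were tested, and quantile normalization gave 20 higher. Among sets, the count of 3 ranged from 0 to 6 without single libraries. It was 0 with no filter (13 at an unadjusted limma p under 0.05), 5 with median-of-ratios rescaling and 0 without m1 replicate 4 and m3 replicate 3 (6 unadjusted). Among numbers, the count of 6 ranged from 1 to 8. It was 0 with no filter (15 unadjusted), 0 with no set term (8 unadjusted) and 1 without m1 replicate 4 and m3 replicate 3. Where not named, the cause was not tested. Shares of all genes under these settings are given only for both rescalings against kidney. The other counts do not show whether the transporter genes moved beyond all genes.

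By the rule used, the replicate numbers did not pair the libraries, because only 7 of 12 same-numbered pairs correlated over 0.1. Over these 12 pairs the correlation of deviations from the set means averaged 0.143 and was always positive (0.0254 to 0.273). Over 36 other pairs it averaged -0.0481, and 10 of 12 libraries correlated best with their own number. The reported fit of the sets left the number out, so differences between numbers add to its spread. With the number as a replicate block, 10 genes passed among sets, and 10 were higher and 13 lower than kidney. No share of all genes is given for this block.

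Genes that did not pass against kidney in the reported fit changed sign under some settings. With median-of-ratios rescaling Slc38a10 was at 0.23, Slc6a6 at 0.076, Slc7a6os at 0.052 and Slc7a4 at 0.26. With quantile normalization Slc38a10 was at 0.048, Slc7a6os at 0.31, Slc7a4 at 0.60, Slc38a7 at 0.25, Slc36a1 at 0.45, Slc6a17 at 0.45, Slc38a9 at 0.51 and Slc1a2 at 0.56, of which Slc38a9 (adjusted p = 9.75e-04), Slc7a4 (7.44e-03), Slc7a6os (0.0195) and Slc6a17 (0.0457) passed as higher by limma. Slc7a4 (-0.006) ranged from -0.159 to 0.09 with single libraries left out, and was at 0.042 without m1 replicate 4 and m3 replicate 3 and at 0.032 with the replicate block.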
